A study of Mus musculus with 16 samples.

Results

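The 10 core enzymes of muscle glycolysis were followed through 14 days of gradual hypoxia in the soleus, a hindlimb muscle of the mouse that is rich in slow, oxidative fibres. The genes were Hk2, Pfkm, Aldoa, Tpi1, Gapdh, Pgk1, Pgam2, Eno3, Pkm and Ldha, and a probe belonged to one of them when the transcript named for it in the scanner files was a transcript of that gene. They are 10 of 20972 genes named on the array and were read by 19 of its 55681 probes, and all 19 were well above background on all 16 arrays. RNA came from soleus of male mice, and the labels give the same hypoxia treatment for every sample, with sampling at day 0, 3, 7 or 14. The oxygen level reached 10% by the end of the first week and was then held, so day 0 precedes the reduction, days 3 and 7 fall within it and day 14 ends the stable week. There were 4 RNA samples at day 0, 3 at day 3 (numbered 1, 2 and 4), 3 at day 7 (numbered 1, 2 and 4) and 4 at day 14. By the design each day had 4, so the remaining sample of day 3 and of day 7 was not analysed here. Strain, age and genotype are not given in the sources used here, and the labels do not say that the RNA samples came from separate mice, so the p-values measure only the spread between these samples.

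The arrays lay on 2 slides. Slide 1 held the day 3 and day 7 samples together with day 0 samples 1 and 2, and slide 2 held the day 14 samples together with all 4 day 0 samples. Values are log2 intensities minus the 75th percentile of the array. Values per RNA sample were moved to the level of slide 2 by the slide term of the model, and each was averaged over the arrays of the sample. Days 3 and 7 are therefore tied to day 0 samples 3 and 4 and to day 14 only through the 2 RNA samples that were run on both slides. Between 48.3 and 55.3% of the spots were well above background on slide 1, and between 37.9 and 42.9% on slide 2. No spot was saturated. As a check of the tissue label, Myh7, the slow myosin heavy chain, was above background on every array, with a slide-adjusted value of 10.62 to 10.81 at day 14 and 10.64 to 10.71 at day 0.

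Glycolysis splits glucose into pyruvate in the cytosol and yields ATP without oxygen. Hexokinase traps glucose in the cell, phosphofructokinase commits the sugar to the pathway, aldolase and triose phosphate isomerase make the triose phosphates, and the remaining enzymes turn these into pyruvate while ATP and NADH are formed. Lactate dehydrogenase regenerates NAD+ from NADH when pyruvate is not taken into the mitochondria. Many genes of the pathway are known targets of hypoxia-inducible factor 1, a transcription factor stabilised at low oxygen that binds the core letters ACGTG or GCGTG in DNA. Hexokinase aside, fast, glycolytic fibres carry more of most of these enzymes than slow fibres.

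The 10 enzymes did not move as a block. Pkm was lower at days 3 and 7, Tpi1 was lower and Ldha, on its brightest probe, higher at day 7, and Hk2 stood highest at day 14, while none of the other 6 passed a test on its brightest probe at any day. In limma's moderated test with Benjamini-Hochberg adjustment over 22145 features, 1 of the 10 passed at an adjusted p under 0.05 at day 3 against day 0 (6.09% of all features passed), 3 of 10 at day 7 against day 0 (23.8% of all features), 1 higher and 2 lower (15.6% and 8.15% of all features), and 0 of 10 at day 14 against day 0 (0.402% of all features). The F-test over all 3 differences from day 0 called 2 of the 10, Hk2 and Pkm, against 17% of all features, and the count was 0 without day 0 sample 1, day 0 sample 2 or day 7 sample 1, and 1 without day 0 sample 3, day 14 sample 1 or day 14 sample 2. The shares called among the 10 were thus close to those of all features on days 3 and 7. At day 14, 1 of the 10 had an unadjusted p under 0.05. The samples of the later day lay apart from those of day 0 for 2 of 10 at day 3, both lower (30.7% of all features lay apart in either direction), 6 of 10 at day 7, 3 higher and 3 lower (41.8%), and 1 of 10 at day 14, which was higher (15.1%). With each comparison fitted within its own slide, which leaves 2 day 0 samples for days 3 and 7, 0 of 10 passed at day 3 (0% of all features), day 7 (9.45%) and day 14 (0.00452%). The median difference from day 0 over the 10 was -0.19 at day 3, -0.11 at day 7 and 0.02 at day 14 on the log2 scale, against 0.06, 0.09 and 0.06 over all features.

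**Figure D1:**
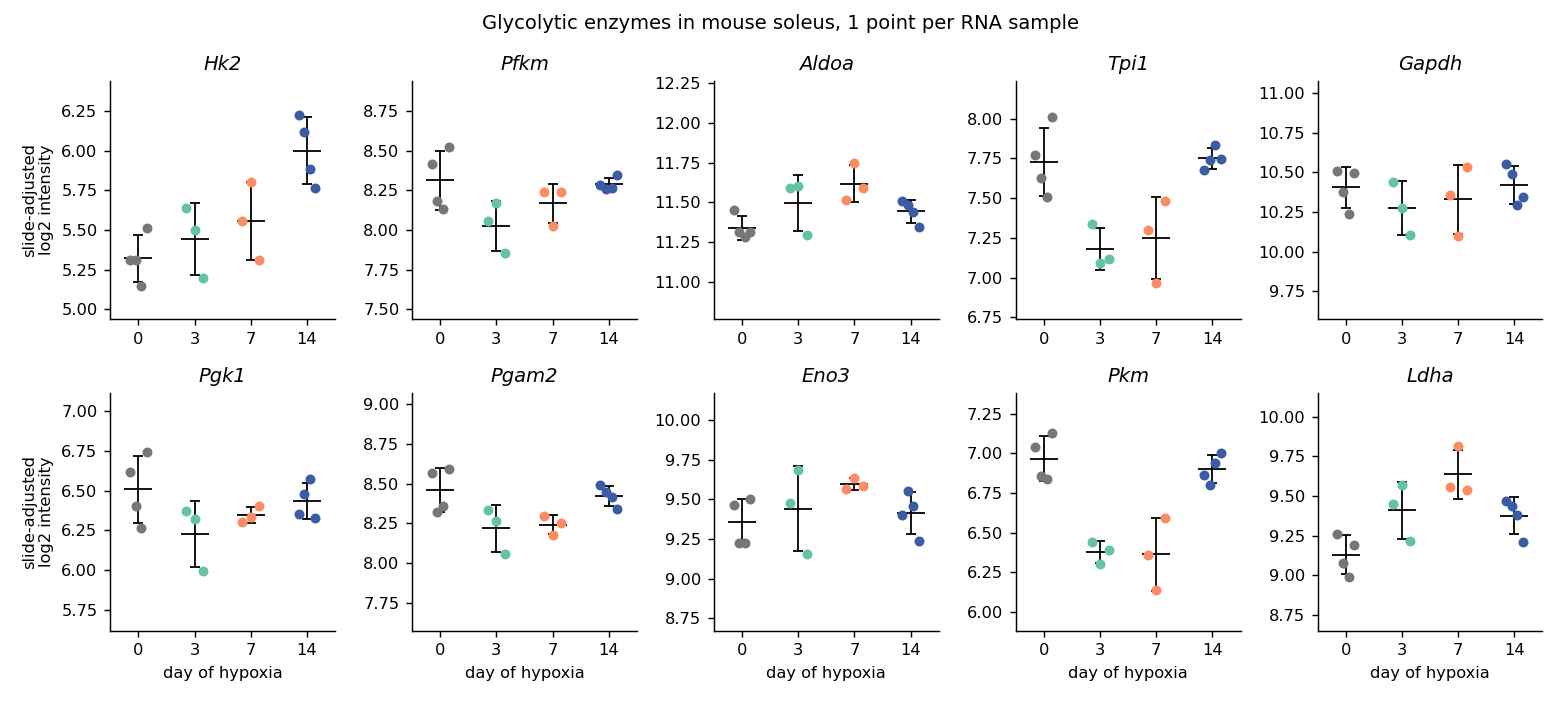
Slide-adjusted log2 intensity (vertical axis) of the 10 enzymes at days 0, 3, 7 and 14 (horizontal axis), with 1 point per RNA sample and the mean ± SD in black; every panel spans the same height. The 4 Hk2 values at day 14 lie above all other Hk2 values except the 5.80 of 1 day 7 sample, which exceeds the lowest day 14 value of 5.77, and the Pkm and Tpi1 values at days 3 and 7 lie below all those at day 0.

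The promoters shown are those of the 3 enzymes with a call against day 0 and of Hk2, searched for the core letters of the hypoxia-inducible factor. Each is the stretch of 250 bases before the start of the most upstream transcript in RefSeq (build GRCm38.p6), read 5′ to 3′ on the strand of the gene, with ACGTG or GCGTG in capitals on whichever strand they occur. CACGTG holds ACGTG on both strands and counts as 1 place. The windows lie at chr6:82774455-82774704 on the minus strand for Hk2, chr6:124814159-124814408 on the minus strand for Tpi1, chr9:59656326-59656575 on the plus strand for Pkm and chr7:46845554-46845803 on the plus strand for Ldha.
Hk2: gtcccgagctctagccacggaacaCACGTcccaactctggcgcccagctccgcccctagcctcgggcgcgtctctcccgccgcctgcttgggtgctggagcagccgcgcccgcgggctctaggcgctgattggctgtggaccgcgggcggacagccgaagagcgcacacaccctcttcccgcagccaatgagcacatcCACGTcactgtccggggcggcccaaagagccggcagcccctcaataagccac
Ldha: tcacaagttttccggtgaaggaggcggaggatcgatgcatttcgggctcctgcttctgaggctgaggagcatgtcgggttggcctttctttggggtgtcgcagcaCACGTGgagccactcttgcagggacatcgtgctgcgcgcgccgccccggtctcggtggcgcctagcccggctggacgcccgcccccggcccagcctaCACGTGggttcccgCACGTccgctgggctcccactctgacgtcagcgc
Pkm: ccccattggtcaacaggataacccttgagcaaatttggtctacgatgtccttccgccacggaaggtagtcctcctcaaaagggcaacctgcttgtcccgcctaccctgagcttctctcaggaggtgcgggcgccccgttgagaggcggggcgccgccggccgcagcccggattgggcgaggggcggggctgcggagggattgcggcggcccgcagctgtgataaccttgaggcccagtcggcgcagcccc
Tpi1: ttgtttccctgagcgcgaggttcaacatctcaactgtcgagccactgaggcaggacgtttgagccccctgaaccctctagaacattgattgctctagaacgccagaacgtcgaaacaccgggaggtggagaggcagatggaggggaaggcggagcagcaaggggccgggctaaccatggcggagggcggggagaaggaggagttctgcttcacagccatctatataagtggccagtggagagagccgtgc

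Hk2 held 2 such places, 226 to 222 and 52 to 48 bases upstream of the start, and Ldha held 3, at 145 to 140, 48 to 43 and 34 to 30 bases. No such letters stood in these windows of Pkm and Tpi1, although the window of a further Pkm transcript at chr9:59656977-59657226 held 1 place. Over all alternative starts, 8 of the 10 enzymes had at least 1 place (80.0%), against 41.5% of 27025 genes. Counted by window, the shares were 70.6% of 17 windows of the enzymes and 38.6% of 32851 windows. Within the range of GC content of the enzymes, 36.4 to 69.6%, the share was 37.7% of 27765 windows. That range keeps most windows and does not match GC content, whose median was 58.4% for the enzymes and 52.4% for all windows. The part of GC content in these shares was not tested. The 2 enzymes without a place were Tpi1 and Pgam2. Gapdh and Pgk1, which were not called on their brightest probes, held 2 places each, as many as Hk2, and 1 of the 4 Pfkm windows also held 2. A match of 5 letters is a description of the window and not a bound site.

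Hk2, the hexokinase isoform of skeletal muscle that responds to insulin and exercise, was the enzyme with the largest difference at day 14. Its values were 5.31, 5.31, 5.15 and 5.51 at day 0, 5.64, 5.50 and 5.20 at day 3, 5.56, 5.80 and 5.31 at day 7, and 6.23, 6.12, 5.89 and 5.77 at day 14. All 4 samples of day 14 were above all 4 of day 0, while the samples of days 3 and 7 overlapped those of day 0. Hk2 averaged 6.0 ± 0.21 at day 14 and 5.32 ± 0.15 at day 0 (SD, n = 4 each), a difference of 0.68 ± 0.14 (SE) and a fold of 1.60. The 95% confidence interval of the difference was 0.38 to 0.98, and the adjusted p was 0.0527 (limma), just outside the threshold. The F-test over all days called Hk2 at an adjusted p of 0.0265. Slide 2 holds all day 14 arrays and all 4 day 0 samples, so with the slide term the model's difference is that of slide 2. The same 0.68 on slide 2 alone is therefore no second estimate. An exact 2-sided permutation test over the slide 2 arrays gave p 0.0286, the smallest that 4 against 4 arrays allow. That test was run on each of the 10 enzymes, Hk2 had the smallest p, and no adjustment was made over the 10. The adjusted p was 0.0975 when the model was fitted within that slide (limma).

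The sign of the Hk2 difference at day 14 was positive under all 26 other settings (0.53 to 0.76), and 9 of them put it past the threshold, with adjusted p from 0.0103 to 0.163. Among them, leaving out day 3 sample 4, day 7 sample 2, day 7 sample 4 or day 14 sample 4 gave 0.0424, 0.0406, 0.0447 and 0.0432. Arrays of days 3 and 7 do not enter this difference, so leaving out their samples changed only the spread and the adjustment. Red blood cell genes were higher at day 14. Of 5 measured markers of that list 4 passed (0.402% of all features did), Hbb-bt (1.83), Hba-a1 (1.74), Alas2 (1.73) and Hba-a2 (1.42). The summed linear level of the 5 was 2128 to 3587 at day 14 against 768 to 1148 at day 0. All 5 were above background on every array of days 14 and 0, and 0 of the 5 passed when the model was fitted within slide 2 alone. At day 3, 1 of the 5 was lower, Alas2 (-1.16). Their part in the Hk2 difference was not tested. In bulk muscle, fewer cells of a type and less RNA per cell cannot be told apart.

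**Figure D2:**
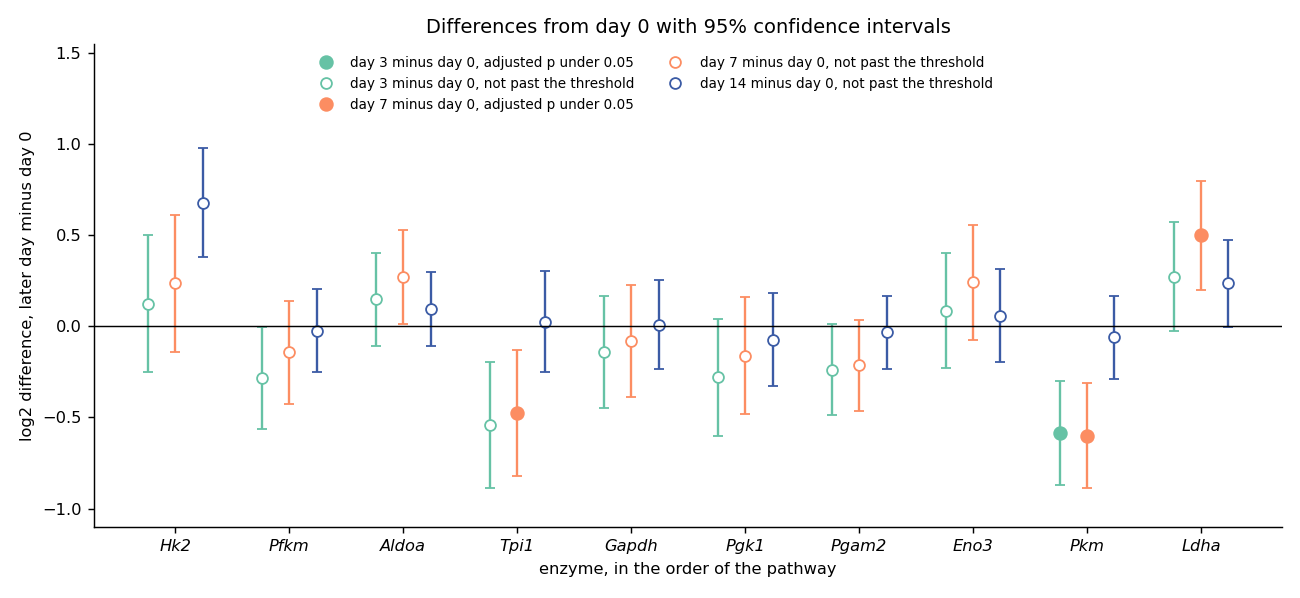
Difference from day 0 (vertical axis, log2, with 95% confidence intervals) of each enzyme in the order of the pathway (horizontal axis) for days 3, 7 and 14; filled points passed an adjusted p of 0.05. The filled points are Pkm at days 3 and 7, Tpi1 at day 7 and Ldha at day 7, and the interval of Hk2 at day 14 lies between 0.38 and 0.98.

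Pfkm, the muscle subunit of phosphofructokinase, averaged 8.31 ± 0.18 at day 0 (SD, n = 4), 8.03 ± 0.16 at day 3 (n = 3), 8.17 ± 0.12 at day 7 (n = 3) and 8.29 ± 0.04 at day 14 (n = 4). Its difference at day 3 was -0.28 ± 0.13 (SE), with an unadjusted p of 0.0491 and an adjusted p of 0.196 (limma), and the day 3 samples, at 7.86 to 8.17, overlapped the day 0 samples, at 8.13 to 8.52. Its probe stood in 10 spots on each array. Aldoa, the muscle aldolase, averaged 11.34 ± 0.08, 11.50 ± 0.17, 11.62 ± 0.12 and 11.44 ± 0.07 at days 0, 3, 7 and 14. The 3 Aldoa samples of day 7, at 11.52 to 11.75, were above the 4 of day 0, at 11.28 to 11.45, yet the difference of 0.27 ± 0.12 did not pass (adjusted p 0.115, limma). Neither enzyme passed at any day.

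Tpi1, which interconverts the triose phosphates, was lower at day 7. Its values were 7.77, 7.63, 7.51 and 8.01 at day 0, 7.33, 7.09 and 7.12 at day 3, 7.30, 6.97 and 7.48 at day 7, and 7.68, 7.74, 7.84 and 7.75 at day 14. All samples of days 3 and 7 were below all samples of day 0, and those of day 14 lay within the day 0 range. At day 7 it averaged 7.25 ± 0.26 (n = 3) against 7.73 ± 0.22 at day 0 (n = 4), a difference of -0.48 ± 0.16 (SE) and a fold of 0.719 (adjusted p 0.0460, limma). At day 3 the difference was -0.54 ± 0.16 (adjusted p 0.0610, limma). The day 7 call was the least stable of the 4: it held in 11 of 26 other settings, with differences from -0.68 to -0.18 and adjusted p from 0.0104 to 0.408. It was lost within slide 1 alone (-0.46, adjusted p 0.115), and when any 1 of 10 RNA samples was left out, among them day 7 sample 2 (-0.34, adjusted p 0.177), day 0 sample 1 (0.144) and day 0 sample 2 (0.197).

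Gapdh, which oxidises glyceraldehyde 3-phosphate and makes the NADH of the pathway, is often used as a constant control. Its brightest probe averaged 10.40 ± 0.13, 10.27 ± 0.17, 10.33 ± 0.22 and 10.42 ± 0.12 at days 0, 3, 7 and 14. The differences from day 0 were -0.14 ± 0.14, -0.08 ± 0.14 and 0.01 ± 0.11, and none passed (adjusted p 0.582, 0.724 and 0.976, limma). The 95% intervals were -0.45 to 0.17 at day 3, -0.39 to 0.23 at day 7 and -0.24 to 0.25 at day 14. With the mean of all its probes in place of the brightest, Gapdh was called lower at day 3 (-0.67, adjusted p 0.0467) and day 7 (-0.82, adjusted p 0.0083, limma). At day 14 the samples of the brightest probe, at 10.29 to 10.55, overlapped those of day 0, at 10.24 to 10.51.

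The 7 probes of Gapdh did not give 1 answer. When every probe was tested on its own, 3 of 7 were lower at day 3 (3.23% of all 29479 probes were called lower), 5 of 7 at day 7 (7.84% of all probes) and 0 of 7 at day 14 (0.241% of all probes). Probes 1 and 2 in order of brightness had differences of -0.08 and -0.39 at day 7, and probes 3 to 7 had -0.95, -1.03, -0.95, -1.16 and -1.19, with adjusted p from 0.0044 to 0.0140 for these 5 (limma). Probe 4, for example, read 7.85, 7.46 and 8.06 at day 7 against 8.95, 8.67, 8.65 and 9.02 at day 0, without overlap. Where these probes lie on the Gapdh transcript is not given in the sources used here, and the cause of the disagreement was not tested. The mouse genome also holds many processed pseudogenes of Gapdh, and whether any probe reads them was not tested, so these values are uncertain.

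The 4 arrays of day 14 and the 4 of day 0 on slide 2 allowed the probes to be compared at day 14 with no slide term. That comparison holds no array of day 3 or day 7 and cannot decide their disagreement. The brightest probe of a gene minus each of its other probes was compared between the days by an exact 2-sided permutation test, a test chosen after the probes were seen to differ, and p was adjusted over the 9 probe pairs. For Gapdh the contrast was higher at day 14 by 0.42, 0.48, 0.65 and 0.74 for probes 3, 5, 6 and 7, each with an exact p of 0.0286, the smallest possible, and an adjusted p of 0.0429. It was 0.13 for probe 2 (exact p 0.314) and 0.28 for probe 4 (exact p 0.143). On these arrays the contrast was thus at the smallest possible p for 4 of the other 6 probes. All contrasts share the brightest probe and the arrays on which the probes were seen to differ. They describe the disagreement at day 14 and are no independent test of it. On that slide the 75th percentile of intensity was 49.1 to 67.11 on the day 14 arrays and 67.14 to 77.0 on the day 0 arrays, and the part of this dimmer signal in the probe differences was not tested.

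**Figure D3:**
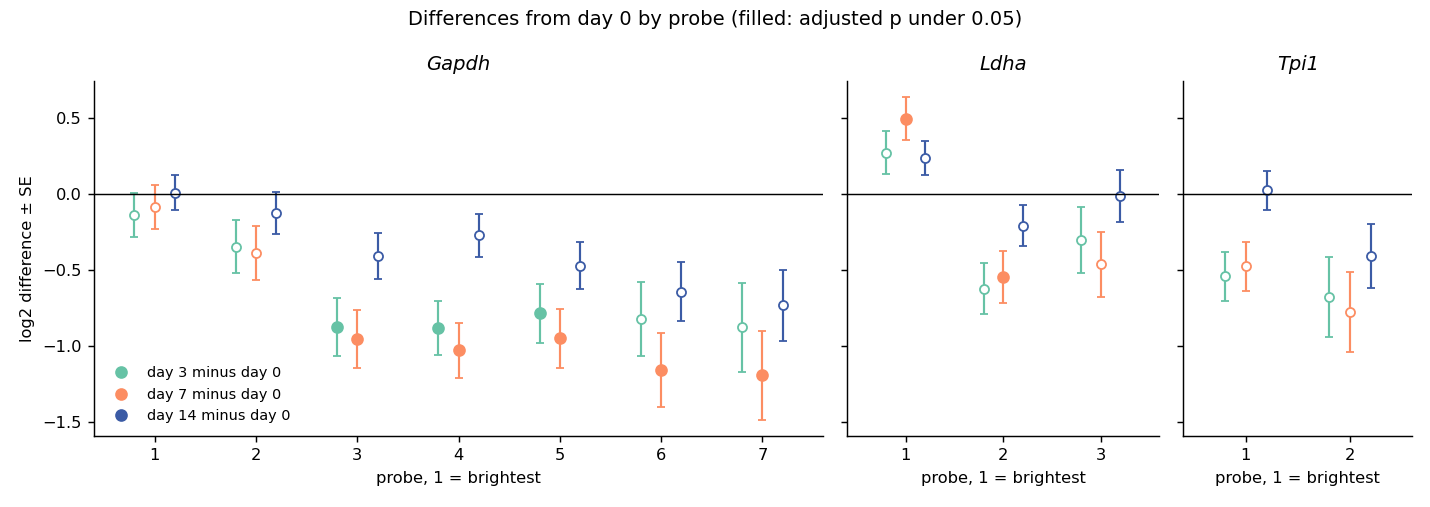
Difference from day 0 (vertical axis, log2 ± SE) of each probe of Gapdh, Ldha and Tpi1 (horizontal axis, numbered from the brightest) at days 3, 7 and 14; filled points passed an adjusted p of 0.05. Gapdh probes 3 to 7 lie between -0.95 and -1.19 at day 7 and Gapdh probe 1 at -0.08, and Ldha probe 1 lies above 0 at day 7 where Ldha probes 2 and 3 lie below it.

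The next 3 enzymes showed no difference past the test. Pgk1, which makes the first ATP of the pathway, averaged 6.51 ± 0.21, 6.23 ± 0.21, 6.35 ± 0.05 and 6.43 ± 0.11 at days 0, 3, 7 and 14. Pgam2, the phosphoglycerate mutase of muscle, averaged 8.46 ± 0.14, 8.22 ± 0.15, 8.24 ± 0.06 and 8.42 ± 0.06. Its day 7 samples, at 8.18 to 8.30, were below the day 0 samples, at 8.32 to 8.59, but the difference of -0.21 ± 0.12 had an adjusted p of 0.202 (limma). Eno3, the enolase of muscle, averaged 9.35 ± 0.15, 9.44 ± 0.27, 9.59 ± 0.04 and 9.41 ± 0.13. All 3 of its day 7 samples, at 9.56 to 9.64, were above the 4 of day 0, at 9.23 to 9.50, with a difference of 0.24 ± 0.15 (adjusted p 0.260, limma). Over the 3 enzymes the differences from day 0 ran from -0.28 to 0.24.

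Pkm, the pyruvate kinase of muscle that makes pyruvate and the last ATP of the pathway, had the smallest adjusted p of the 10 at days 3 and 7. Its values were 7.04, 6.86, 6.84 and 7.13 at day 0, 6.44, 6.30 and 6.39 at day 3, 6.36, 6.14 and 6.59 at day 7, and 6.87, 6.80, 6.94 and 7.00 at day 14. The samples of days 3 and 7 were all below those of day 0, and those of day 14 overlapped them. At day 3 Pkm averaged 6.38 ± 0.07 (n = 3) against 6.97 ± 0.14 at day 0 (n = 4), with a log2 difference of -0.58 ± 0.13 (SE), a fold of 0.667 (adjusted p 0.0283, limma). At day 7 it averaged 6.36 ± 0.23 (n = 3), with a difference of -0.60 ± 0.13 and a fold of 0.660 (adjusted p 0.00776, limma). At day 14 the difference was -0.06 ± 0.11 (adjusted p 0.790), with a 95% interval of -0.29 to 0.17. The F-test over all days called it at an adjusted p of 0.0247.

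The size of the Pkm difference was nearly the same within slide 1 alone, at -0.58 for day 3 and -0.59 for day 7, but the adjusted p was then 0.142 and 0.0554 (limma), with 2 day 0 samples left. The call at day 3 held in 19 of 26 other settings and was lost without day 0 sample 1 (0.129), day 0 sample 2 (0.218) or day 3 sample 2 (0.0939), and the call at day 7 held in 21 of 26 and was lost without day 0 sample 1 (0.0550) or day 0 sample 2 (0.0762). Pkm gives rise to alternative transcripts, and which of them the probe reads is not given in the sources used here. Some markers of other cells were lower on 1 or both of these days, while others were not. At day 7, C1qa (-1.62) and C1qb (-1.53), complement genes of macrophages, were lower, 2 of 5 measured macrophage markers (8.15% of all features). The summed linear level of the 5 was 11.5 to 13.2 at day 7 against 14.9 to 20.4 at day 0. At day 3 no macrophage marker passed, 3 of 5 differences were positive, and the summed level was 15.9 to 35.5. Of 5 endothelial markers, Tie1 was lower at day 3 (-0.95), when 6.09% of all features passed in either direction. Tie1 (-0.95) and Pecam1 (-0.65) were lower at day 7 (8.15% of all features). Their summed level was 33.7 to 35.7 at day 3 and 31.8 to 33.7 at day 7, against 29.7 to 31.2 at day 0. Of the 2 probes of Kdr, another of the 5, 1 was called higher at day 7 on its own (differences 0.22 and 0.64). The part of these markers in the Pkm difference was not tested.

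Ldha, the muscle subunit of lactate dehydrogenase, was the 1 enzyme called higher. Its brightest probe read 9.26, 9.08, 8.99 and 9.19 at day 0, 9.45, 9.57 and 9.22 at day 3, 9.56, 9.81 and 9.54 at day 7, and 9.47, 9.44, 9.38 and 9.21 at day 14. The 3 day 7 samples were above all day 0 samples, and those of days 3 and 14 overlapped day 0. At day 7 Ldha averaged 9.64 ± 0.15 (n = 3) against 9.13 ± 0.12 at day 0 (n = 4), a difference of 0.50 ± 0.14 (SE) with a 95% interval of 0.20 to 0.80 and a fold of 1.41 (adjusted p 0.0213, limma). At day 14 the difference was 0.24 ± 0.11 (adjusted p 0.249, limma), and the slide 2 arrays alone gave an exact permutation p of 0.0571, not adjusted over the 10 enzymes.

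The call for Ldha at day 7 held in 20 of 26 other settings. It was lost within slide 1 alone (0.48, adjusted p 0.102), without day 0 sample 2 (0.35, 0.238) and without day 7 sample 2 (0.41, 0.0852), and the sign turned with the mean of all 3 probes in place of the brightest (-0.17, adjusted p 0.455). The other Ldha probes had differences of the opposite sign. Probe 2 read 4.92, 5.03 and 5.33 at day 7 against 5.79, 5.65, 5.38 and 5.69 at day 0, all below, with a difference of -0.55 ± 0.17 (adjusted p 0.0367, limma). Probe 3 had -0.46 ± 0.22 (adjusted p 0.147). The day 7 direction of Ldha thus depends on the probe. The brightest probe minus probe 2 was higher at day 14 than at day 0 by 0.44 on slide 2 (exact p 0.0286, adjusted p 0.0429 over the 9 pairs), and minus probe 3 by 0.25 (exact p 0.0571, adjusted p 0.0735). The 2 probes of Tpi1 had the same sign at day 7, -0.48 and -0.78, but each missed the threshold when every probe was tested on its own (adjusted p 0.0533 and 0.0508, limma), and at day 14 they parted by 0.43 on slide 2 (exact p 0.0286, adjusted p 0.0429).

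The shift between slides was as large as the differences for several enzymes. The RNA of day 0 samples 1 and 2 shifted between slide 2 and slide 1 by -0.62 and -0.74 for Pkm, by 0.54 and 0.73 for Aldoa and by 0.45 and 0.72 for Ldha (slide 2 minus slide 1). For Tpi1 the shift was -0.22 and -0.41, and for Hk2 0.23 and 0.14, against a median over all features of 0.11 and 0.15. With the slide 1 arrays of day 0 left out, so that day 7 on slide 1 was set against day 0 on slide 2 with no slide term, the day 7 differences became 0.068 for Pkm (adjusted p 0.733), -0.064 for Ldha (0.736), -0.18 for Tpi1 (0.408) and -0.34 for Aldoa (0.0381). That setting merges the day with the slide. The differences at days 3 and 7 therefore rest on day 0 samples 1 and 2, and on slide 1 the Pkm arrays read 7.68 and 7.56 at day 0, 7.11, 6.97 and 7.06 at day 3, and 7.03, 6.81 and 7.26 at day 7.

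**Figure D4:**
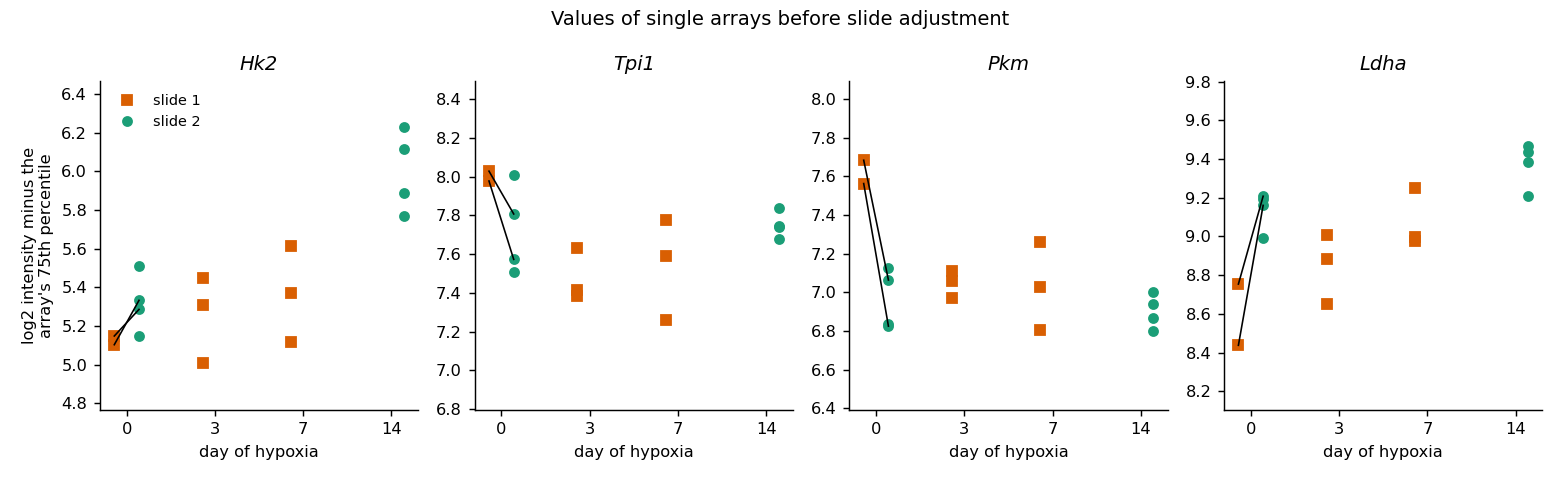
Log2 intensity minus the 75th percentile of the array (vertical axis) of Hk2, Tpi1, Pkm and Ldha on each array, before slide adjustment, by day (horizontal axis), with slide 1 as squares and slide 2 as circles; black lines join the arrays of day 0 samples 1 and 2. On slide 1 both Pkm values of day 0, 7.68 and 7.56, lie above all day 3 and day 7 values, and on slide 2 the same RNA reads 7.06 and 6.83.

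Between later days no enzyme passed the test. For day 7 against day 3, 0 of 10 passed in limma (0.677% of all features did), 0 had an unadjusted p under 0.05, and the differences ran from -0.02 to 0.23, 9 of them positive. For day 14 against day 7, 0 of 10 passed in limma (2.3% of all features did), although 3 had an unadjusted p under 0.05. These were Pkm, at 0.54 ± 0.16 (adjusted p 0.0765), Tpi1, at 0.50 ± 0.19 (0.139), and Hk2, at 0.44 ± 0.20 (0.220). The samples of both days lay apart for 7 of 10 (32.5% of all features), 4 of them higher at day 14, Pfkm, Tpi1, Pgam2 and Pkm, and 3 lower, Aldoa, Eno3 and Ldha. Ldha had -0.26 ± 0.16 (adjusted p 0.364). The Pkm difference passed in 4 of 24 other settings, with adjusted p from 0.0293 to 0.688. This comparison also spans the slides.

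Regulators and transporters around the pathway held 9 calls at day 7, when 23.8% of all features were called. Of 28 listed genes 26 were measured. At day 3, 1 was higher and 0 lower (6.09% of all features passed). At day 7, 8 were higher and 1 lower (15.6% and 8.15% of all features), and at day 14, 0 passed in either direction (0.402% of all features). Pdp1, the phosphatase that switches pyruvate dehydrogenase on, averaged 3.74 ± 0.18 at day 7 (n = 3) against 2.34 ± 0.06 at day 0 (n = 4), a difference of 1.40 ± 0.18 (adjusted p 0.00163, limma), and 1.41 within slide 1 (adjusted p 0.0405). Pdk4, the kinase that switches the same complex off, was also higher, by 1.18 ± 0.34 (adjusted p 0.0249). Within slide 1 alone 5 genes of the list were higher and 0 lower at day 7 (9.45% of all features passed). Pdk4 read 0.59 (adjusted p 0.190) when the slide 1 arrays of day 0 were left out, and Pdp1 0.92 (adjusted p 0.00343). Both were lower at day 14 than at day 7, with differences of -1.14 ± 0.21 for Pdp1 (adjusted p 0.0223) and -1.69 ± 0.40 for Pdk4 (adjusted p 0.0448).

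Of the 4 bifunctional enzymes that set fructose 2,6-bisphosphate, the activator of phosphofructokinase, 3 were higher at day 7 (15.6% of all features). Pfkfb3 had 1.49 ± 0.34 (adjusted p 0.0082), Pfkfb4 0.72 ± 0.15 (0.0055) and Pfkfb1 0.70 ± 0.24 (0.0478, limma), while Pfkfb2 had -0.05 (0.933) and did not pass. Gpd2, the mitochondrial glycerol phosphate dehydrogenase that takes electrons from cytosolic NADH, was higher at day 3 (0.64 ± 0.12, adjusted p 0.0166) and day 7 (0.57 ± 0.12, 0.0060). Bsg, a chaperone of lactate transporters, was the 1 called lower at day 7 (-0.997 ± 0.25, adjusted p 0.0133), and it read 0.28 when the slide 1 arrays of day 0 were left out. The glucose transporters Slc2a1 and Slc2a4 had 0.10 ± 0.21 (adjusted p 0.775) and 0.00 ± 0.13 (0.992) at day 7, and the lactate exporter Slc16a3 had -0.18 ± 0.42 (0.803). Those 3 carriers did not pass at any day.

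Of 20 other enzymes and isoforms of the pathway 14 were measured, and 0 passed at day 3 or day 14. At day 7, 2 were higher and 4 lower (15.6% and 8.15% of all features). Pfkl, the liver subunit of phosphofructokinase, had -1.52 ± 0.31 (adjusted p 0.0056, limma). Eno1, the broadly expressed enolase, had -0.69 ± 0.15 (0.0064), and Pfkp, the platelet subunit of phosphofructokinase, -0.54 ± 0.16 (0.0273), although another Pfkp probe read 0.76. Aldoc, the brain aldolase, had 0.70 ± 0.20 (0.0214), and Gpi1, the isomerase between hexokinase and phosphofructokinase, named after its value was seen, 0.38 ± 0.12 (0.0299, limma). When the slide 1 arrays of day 0 were left out, Pfkl read 0.18, Eno1 -0.01, Pfkp -0.33 and Aldoc 0.28, none past the threshold. Within slide 1 alone 0 of the 14 were higher and 2 lower at day 7 (9.45% of all features passed). Ldhb, the heart subunit of lactate dehydrogenase, had 0.24 ± 0.13 (adjusted p 0.193) at day 7.

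**Figure D5:**
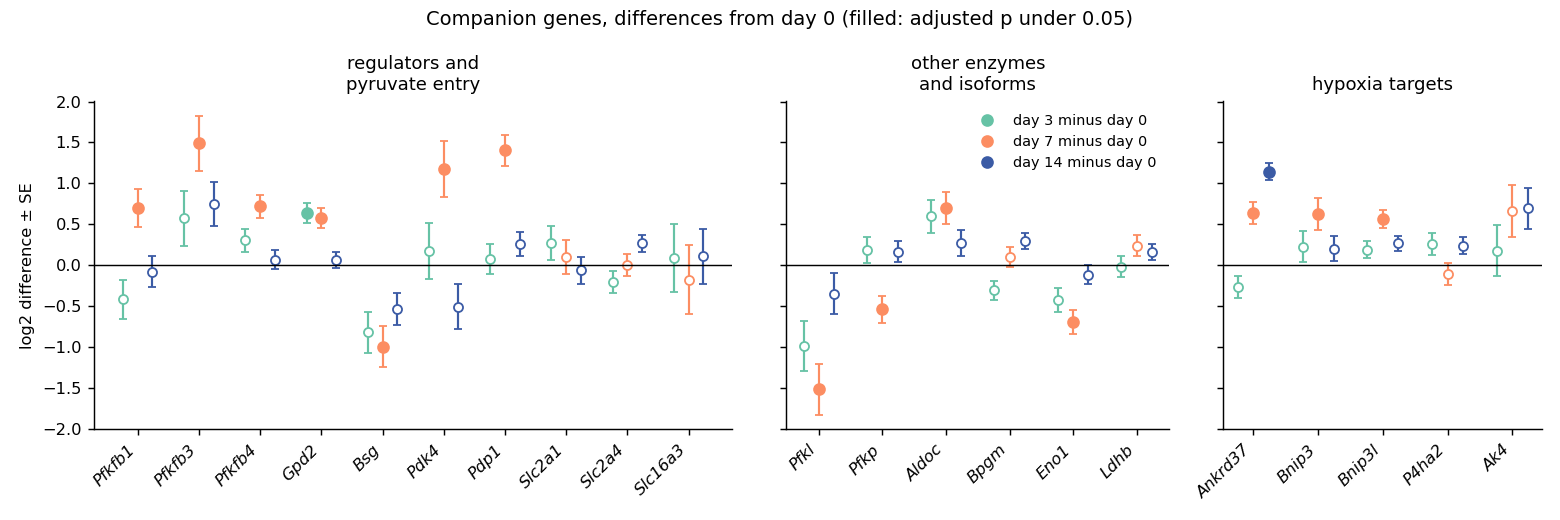
Difference from day 0 (vertical axis, log2 ± SE) of companion genes of the pathway (horizontal axis) at days 3, 7 and 14, in 3 groups; filled points passed an adjusted p of 0.05. Pdp1 and Pfkfb3 reach 1.40 and 1.49 at day 7, Pfkl lies at -1.52, and Ankrd37 is the 1 gene shown with a filled point at day 14, at 1.14.

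Other known targets of hypoxia-inducible factor 1 were called at days 7 and 14. Of 21 listed genes 19 were measured, and 0 passed at day 3 (6.09% of all features passed), 5 were higher and 0 lower at day 7 (15.6% and 8.15% of all features), and 1 was higher and 0 lower at day 14 (0.402% of all features in either direction). Ankrd37, a target with ankyrin repeats, averaged 1.56 ± 0.05 at day 14 against 0.40 ± 0.12 at day 0 (n = 4 each), a difference of 1.14 ± 0.11 (adjusted p 0.00139, limma), and it had 0.64 ± 0.13 (adjusted p 0.0062) at day 7. At day 7, Bnip3l and Bnip3, receptors that mark mitochondria for removal, had 0.57 ± 0.11 (0.0045) and 0.62 ± 0.19 (0.0333). When every probe was tested on its own, 4 of 4 Bnip3l probes and 2 of 3 Bnip3 probes were called higher. The Bnip3 probes ran from -0.10 to 0.72. The other 2 genes called higher at day 7 were Pfkfb3 and Kdm3a, a histone demethylase with 0.53 ± 0.16 (0.0317) named here after its value was seen. Hif1a itself, whose protein rather than its transcript responds to oxygen, had 0.04 ± 0.15 (0.871) at day 7 and 0.13 ± 0.12 (0.567) at day 14. Within slide 1 alone 2 of the 19 were higher at day 7 (9.45% of all features passed in either direction). When the slide 1 arrays of day 0 were left out Bnip3l read 0.17 (adjusted p 0.225). The list's median difference was 0.05, 0.12 and 0.20 at days 3, 7 and 14, against 0.06, 0.09 and 0.06 over all features.

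Among 14 regulators of the glycolytic programme of muscle, all measured, 1 was higher and 2 lower at day 7 (15.6% and 8.15% of all features). At days 3 and 14, 0 passed (6.09% and 0.402% of all features). Mlx, the partner of the glucose-sensing factor Mlxipl, had -0.68 ± 0.14 (adjusted p 0.0062, limma), and Myod1, the myogenic factor enriched in fast muscle, -1.73 ± 0.46 (0.0172). Within slide 1 alone neither Mlx nor Myod1 passed, with adjusted p of 0.0560 and 0.0609 (limma). When the slide 1 arrays of day 0 were left out, 2 of the 14 were higher and 0 lower at day 7, when 3878 of 22145 features passed.

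Fibre-type genes varied between samples on the same days. Over all features, 6.09% passed at day 3, and 15.6% were higher and 8.15% lower at day 7. Of 14 fast-fibre genes 0 were higher and 1 lower at day 3, and 1 was higher and 1 lower at day 7. Pvalb, the calcium buffer of fast fibres, had 1.65 ± 0.51 (adjusted p 0.0319, limma) at day 7, and Casq1, the fast calsequestrin, -0.86 ± 0.19 (0.0077). Myh4, the fastest myosin heavy chain, read 9.77 to 10.10 at day 3 against 3.12 to 7.19 at day 0, without overlap (30.7% of all features lay apart at day 3). It ranged from 4.81 to 10.33 among the 3 day 7 samples. Its differences of 5.16 ± 1.57 at day 3 and 3.63 ± 1.57 at day 7 did not pass (adjusted p 0.0684 and 0.113, limma). Of 12 slow-fibre genes 0 were higher and 2 lower at day 3, and 1 was higher and 5 lower at day 7. Casq2, the slow calsequestrin, had -0.99 ± 0.19 (0.0044) at day 7, and Tnni1, the slow troponin I, -1.05 ± 0.20 (0.0045), with 0.02 for Tnni1 when the slide 1 arrays of day 0 were left out. The other slow-fibre genes that passed at day 7 were Myh7b (-0.52), Tnnc1 (-0.51) and Myoz2 (-0.42), all lower, and Mybpc1 (0.55), which was higher. At day 3 the genes that passed were Mylpf, a fast light chain (-0.72), and Tnni1 (-0.87) and Myh7b (-0.59). Myh7 had 0.15 ± 0.11 (0.385) at day 7. The part of fibre composition in the enzyme values was not tested. All 6 adipocyte genes had positive differences at day 3, with a median of 1.17. Adipoq, the adiponectin of fat cells, read 2.47 to 3.35 at day 3 against 1.52 to 1.74 at day 0, without overlap, but did not pass (1.34 ± 0.44, adjusted p 0.0828, limma). The summed linear level of the 6 was 242 to 348 at day 3 against 202 to 222 at day 0. The 1 that was called at day 3 was Lep, which was well above background on 2 of 3 arrays of day 3 and on 0 of 6 arrays of day 0, so its day 0 level is only a bound and no difference is given. The part of these genes in the enzyme differences of day 3 was not tested. Of the remaining marker lists, fibroblast and tendon genes had 1 of 7 lower at day 7 (Col3a1, -1.01) and 1 of 7 lower at day 14 (Fmod, -2.07). Nerve sheath genes had 1 of 4 lower at day 7. At day 14, 0.402% of all features passed.

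Across the 14 RNA samples, the mean of the 10 enzymes, each centred on its own mean, lay between -0.14 and 0.16 at day 0, -0.30 and -0.03 at day 3, -0.07 and 0.01 at day 7, and 0.03 and 0.14 at day 14. By Pearson's r with that mean profile, which holds the enzyme itself, Pgam2 (0.856), Pgk1 (0.852) and Pfkm (0.846) followed it most closely, then Gapdh (0.763), Tpi1 (0.742), Hk2 (0.627) and Pkm (0.60). Eno3 (0.421), Ldha (0.146) and Aldoa (0.144) followed it least, and these 3 are the enzymes whose samples were higher at day 7 than at day 0 without overlap. The 8 named genes outside the 10 with the most similar profile were Tlcd3b (0.913), Slc25a12 (0.897), Cisd3 (0.885), Atp5g1 (0.884), Syngr2 (0.882), Mrpl47 (0.876), Car14 (0.875) and Ndufaf4 (0.873). Slc25a12 is a mitochondrial aspartate and glutamate carrier, Atp5g1 a subunit of ATP synthase, Mrpl47 a protein of the mitochondrial ribosome and Ndufaf4 an assembly factor of complex I. These correlations describe 14 samples that share the 2 slides and their adjustment, and they were picked as the highest of all features.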

How the data were processed

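Total RNA of mouse soleus was hybridised with 1 dye (Cy3) to Agilent arrays, 16 arrays from 14 RNA samples. Per the file headers, the deposited intensity is the background-subtracted signal of Feature Extraction 11.0.1.1, unscaled between arrays. A series table, also deposited as intensity, served as an alternative, and its steps are not given in the sources used here. The log2 of each spot's intensity had the 75th percentile of that array's non-control spots subtracted, and spots of the same probe were averaged without outlier spots. RefSeq transcripts gave the gene names (27656 of 55681 probes). Probes well above background on at least 3 arrays were kept, and the brightest kept probe stood for its gene, which left 22145 features.

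The fit (limma 3.58.1, statmod 1.5.0, R 4.3.3, 2-sided) held day, slide and, as a random block, the RNA sample (array correlation 0.448). The model had 11 residual degrees of freedom. P-values were adjusted over all features by Benjamini-Hochberg, and a feature was called at an adjusted p under 0.05. The script was tested on simulated data. A summed level is the sum of 2 to the power of the slide-adjusted value over the list. The named genes were the 10 enzymes, up to 6 genes of each list by the smallest F-test p, and 11 further genes of hypoxia, glucose and fibre type. Marker genes called in a cell type list were named beside its count. A few of these genes count in their lists but are not reported here. The 10 enzymes and all lists were chosen with earlier results of these data known. Other settings changed the background correction, scaling, filter, probe choice, slide treatment, replicate block, input table and samples. Sequence windows were read from RefSeq with Python 3.11.15.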

Additional observations from a re-analysis of the deposited data

How the results depend on the processing

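The calls depended on the scaling, the filter, the probe choice, the treatment of the slide and single RNA samples. For day 3 against day 0, where 1 enzyme was called, the count was 2 with normexp, 3 with quantile normalization, 0 with no filter on dim probes, 2 with a stricter filter (above background on each of the 16 arrays), 2 with the mean of all probes, 0 with no slide term, 0 within 1 slide and 2 with the replicate block. Leaving out 1 RNA sample gave 0 to 2. For day 7 against day 0, with 3 called (1 higher, 2 lower), it was 4 with quantile normalization (2 higher, 2 lower). It was 3 with the mean of all probes (0 higher, 3 lower, Gapdh among them), 2 with no filter on dim probes and 2 with every probe on its own. It was 0 with no slide term, 0 within 1 slide and 1 without the slide 1 arrays of day 0. Leaving out 1 RNA sample gave 0 to 3 at day 7 (1 without day 0 sample 1, 0 without day 0 sample 2, 1 without day 7 sample 2). For day 14 against day 0, with 0 called, it was 1 (Hk2) with quantile normalization, with the stricter filter, with no slide term, with the deposited series table and with every probe on its own, and 0 to 1 with 1 RNA sample left out. For day 14 against day 7, with 0 called, it was 1 (Pkm) with normexp, the stricter filter and the replicate block, 1 (Hk2) with no slide term, and 0 to 1 with 1 RNA sample left out. The F-test called 4 enzymes with normexp, with quantile normalization and with the stricter filter, 0 with no filter, 1 with no slide term and 0 to 3 with 1 RNA sample left out, against 2. For day 7 against day 3 every setting gave 0. The sign turned for Ldha at day 7 with the mean of all probes (-0.17). Without the slide 1 arrays of day 0 it turned for Pkm at days 3 (0.084) and 7 (0.068), Ldha at day 7 (-0.064) and Aldoa at days 3 (-0.46) and 7 (-0.34). Among differences that passed in neither setting it also turned for Hk2 (-0.064), Pfkm (0.021), Eno3 (-0.21) and Ldha (-0.29) at day 3, and for Pfkm (0.16), Pgk1 (0.026) and Eno3 (-0.052) at day 7. Without those arrays no slide term is fitted, so each such difference is the main one minus the slide term of the enzyme. That term, slide 2 minus slide 1, was -0.67 for Pkm and 0.56 for Ldha. The causes of the slide shift and of the probe disagreement were not tested. Counts over all features moved as well. At day 3 they were 0 within 1 slide to 3507 with normexp, against 1349, and 10 without day 0 sample 2. At day 7 they were 2093 within 1 slide to 7152 with normexp, against 5263, and 107 without day 0 sample 2. At day 14 they were 1 within 1 slide to 3094 with no slide term, against 89. The share of higher calls at day 14 was 73.0%, and 51.8% with quantile normalization and 48.8% with the series table. Deviations from the day means correlated at -0.15 to 0.17 for same-numbered samples (19 pairs, median 0.05). For the other 54 pairs the correlation was -0.20 to 0.19 (median -0.01). With 3 or 4 samples on each day, this check cannot decide whether the numbers pair the samples. The replicate block left the day 7 count at 3, and gave 2 at day 3 and 1 for day 14 against day 7. The files used here hold no mean signal, so normexp ran on the median signal. Without day 0 sample 1 or 2, which leaves fewer RNA samples on both slides, the array correlation of the full data was used. Of the single enzyme differences under other settings, 1134 kept direction and side of the threshold, 29 lost the threshold, 24 newly passed it, 77 changed sign with no call in either setting and 6 changed sign with a call in at least 1.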
